A study of Mus musculus with 12 samples.

Results

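The alpha and beta globin genes were followed in LSK cells, a sorted fraction (negative for lineage markers, positive for Sca-1 and Kit) that holds mouse hematopoietic stem and early progenitor cells. The genes were taken by name: Hba-a1, Hba-a2, Hbb-b1, Hbb-b2 and Hbb-bt, the adult globins, with every other gene whose name starts with Hba- or Hbb-. This gave 9 genes with 11 probes, of 31131 gene names on the array, and 5 of the 9 were adult globins with 1 probe each. They were chosen by their measured values, since an earlier look at these same 4 groups had shown adult globin transcripts far apart between them. The globin values below are therefore a description and carry no test. Of the 9 genes, 6 passed the filter on dim probes, 4 of them adult, against 23809 genes tested in all.

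The cells came from male DBA2/J mice, with 3 one-colour Agilent arrays per group and 12 in all. LSK cells from blood were taken after G-CSF (5 days, 9 injections), a cytokine that drives granulocyte production and mobilizes stem cells, after AMD3100 (1 hr), an antagonist of the chemokine receptor CXCR4, or after CWHM-823+tGro-b, an inhibitor of the integrin VLA-4 given with a truncated ligand of CXCR2, for which no time is given. LSK cells from the bone marrow of mice injected with PBS were the common reference. All samples had red blood cells depleted and Kit+ cells enriched before sorting. Blood LSK cells of untreated mice were not analysed here, so against marrow the treatment and the tissue cannot be told apart. Whether each array had its own mouse is not stated, and every p-value below therefore measures the spread between these samples only.

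Adult hemoglobin carries oxygen in red cells as a tetramer of alpha and beta chains, each holding a heme. The alpha genes lie together in one cluster and the beta genes in another, and during erythroid maturation both are switched on strongly by GATA1, KLF1 and their partners, acting through distant enhancers and the gene promoters. Stem and early progenitor cells are not known as hemoglobin producers, while reticulocytes carry little other mRNA. DBA/2J mice have the diffuse beta haplotype, with the adult genes Hbb-b1 and Hbb-b2, and the C57BL/6J reference strain has the single haplotype, with Hbb-bs and Hbb-bt.

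The probes set how far these near-identical genes can be told apart, and the 2 coding probes the results turn on are shown for that reason. Each is 60 bases long.
Hba-a1: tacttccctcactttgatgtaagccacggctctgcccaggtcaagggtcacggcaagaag
Hbb-b2: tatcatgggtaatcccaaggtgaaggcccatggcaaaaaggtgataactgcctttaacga
The Hba-a1 probe lies at chr11:32183955-32184014 and the Hba-a2 probe at chr11:32184428-32184487, both in mm9 as the scanner output gives it. The array annotation assigns both alpha probes to the transcripts of both adult alpha genes, so they are read here as 2 measurements of adult alpha globin and not as 1 gene each. The Hbb-bt probe (chr7:110961105-110961164) is assigned to Hbb-bt alone. The Hbb-b2 probe, for which the scanner output gives no mm9 position, is assigned to Hbb-b2 and Hbb-b1, and the Hbb-b1 probe (chr7:110976379-110976438) to Hbb-b1 and Hbb-bs. The design follows reference sequences, so how well the beta probes pair with DBA2/J transcripts was not tested.

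The promoters are shown as the stretch where some factors of the regulator list below are known to bind. The 250 bases before each start site are given, 5′ to 3′ on the gene's strand (RefSeq, GRCm38.p6, the C57BL/6J reference), for the 4 adult globin genes that the promoter table holds. Hba-a1, Hba-a2 and Hbb-bt are named by array probes, Hbb-bs is the reference strain's other adult beta gene and has no probe of its name, and the table has no entry used here for Hbb-b1 or Hbb-b2. The windows are those of Hba-a1 (chr11:32283422-32283671) and Hba-a2 (chr11:32296242-32296491) on the plus strand, and Hbb-bt (chr7:103813924-103814173) and Hbb-bs (chr7:103827929-103828178) on the minus strand. Capitals mark 4 motifs on either strand, and overlapping matches run together: CACCC, the box that KLF1 binds, GATAA, the core read by GATA factors, CCAAT, the box named after its letters, and TATAA, the core of the TATA box.
Hba-a1: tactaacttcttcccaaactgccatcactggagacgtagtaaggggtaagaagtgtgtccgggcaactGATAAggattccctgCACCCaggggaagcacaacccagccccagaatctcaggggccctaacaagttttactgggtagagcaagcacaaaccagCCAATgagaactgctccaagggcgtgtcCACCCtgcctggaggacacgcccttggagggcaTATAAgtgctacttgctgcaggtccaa
Hba-a2: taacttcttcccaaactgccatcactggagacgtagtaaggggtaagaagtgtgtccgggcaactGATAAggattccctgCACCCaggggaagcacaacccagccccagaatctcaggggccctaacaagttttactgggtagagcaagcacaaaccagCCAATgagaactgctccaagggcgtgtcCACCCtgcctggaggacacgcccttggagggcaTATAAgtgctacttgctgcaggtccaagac
Hbb-bt: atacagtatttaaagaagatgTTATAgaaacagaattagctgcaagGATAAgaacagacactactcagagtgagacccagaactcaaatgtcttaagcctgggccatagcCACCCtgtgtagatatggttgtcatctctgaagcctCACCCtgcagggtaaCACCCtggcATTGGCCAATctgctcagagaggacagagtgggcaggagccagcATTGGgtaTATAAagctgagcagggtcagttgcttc
Hbb-bs: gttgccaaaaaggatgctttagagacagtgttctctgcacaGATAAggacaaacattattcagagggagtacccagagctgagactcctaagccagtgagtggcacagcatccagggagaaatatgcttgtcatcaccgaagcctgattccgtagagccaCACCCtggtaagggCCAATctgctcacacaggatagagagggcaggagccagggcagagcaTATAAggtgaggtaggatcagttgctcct
The 2 alpha windows are slightly offset from each other, and the 247 positions they share were all identical. These are 97.6% of the 253 positions of their alignment, and the rest are unmatched ends. The 2 beta promoters were 69.3% identical and Hba-a1 against Hbb-bt 49.3%. All 4 windows held every one of the 4 motifs. Over the same window of 32851 gene promoters, CACCC occurred in 52.0%, GATAA in 22.6%, CCAAT in 33.8% and TATAA in 22.8%, and all 4 occurred together in 318 promoters (0.968%). The Hbb-bt window held 3 CACCC and 3 CCAAT matches, and the 2 alpha windows 2 CACCC matches each. A match says only that these letters are in the window.

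Levels are given as log2 of the processed signal minus the 75th percentile of the same array, so a level of 0 is the 75th percentile of that array. Levels are compared between arrays for 1 probe, or as a sum over a fixed set of marker probes. In bulk samples, a smaller number of expressing cells and less RNA per cell cannot be told apart.

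Adult alpha globin was high in LSK cells mobilized by G-CSF or by CWHM-823+tGro-b and much lower in those mobilized by AMD3100 and in marrow. Hba-a1, which encodes the alpha chain, was at 2.68, 2.74 and 2.80 on the G-CSF arrays, at -0.01, 0.20 and -0.08 on the AMD3100 arrays and at 3.85, 3.66 and 3.12 on the CWHM-823+tGro-b arrays, against -1.28, -1.39 and -0.05 on the marrow arrays. The G-CSF and CWHM-823+tGro-b arrays lay above every AMD3100 and marrow array, and every CWHM-823+tGro-b array lay above every G-CSF array. The AMD3100 and marrow arrays overlapped, because marrow array 3 reached the AMD3100 levels. The probe was above background on all 12 arrays.

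The second alpha probe, named Hba-a2 after the neighbouring gene for the same chain, gave 3.13, 3.09 and 2.75 on the G-CSF arrays, 0.46, 1.11 and -0.21 on the AMD3100 arrays and 4.33, 4.01 and 3.48 on the CWHM-823+tGro-b arrays, against -1.19, -1.35 and -0.32 on the marrow arrays. The order of the groups was the same, and here the AMD3100 arrays also lay above the marrow arrays without overlap. It too was above background on all 12 arrays.

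In differences of group means on the log2 scale, Hba-a1 was 3.65 ± 0.34 higher in G-CSF blood than in marrow (SE of the fit, n = 3 each), a 12.6-fold difference, and Hba-a2 was 3.94 ± 0.38 higher (15.4-fold). In CWHM-823+tGro-b blood, Hba-a1 was 4.46 ± 0.34 higher than in marrow (21.9-fold) and Hba-a2 was 4.89 ± 0.38 higher (29.7-fold). In AMD3100 blood, the differences from marrow were 0.95 ± 0.34 for Hba-a1 and 1.41 ± 0.38 for Hba-a2, and on slide 3 the Hba-a1 difference was -0.02. Without marrow array 3, the alpha differences from marrow were 4.08 and 4.26 for G-CSF, 1.38 and 1.72 for AMD3100 and 4.88 and 5.21 for CWHM-823+tGro-b, Hba-a1 first.

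Between the blood groups, which need no marrow array, Hba-a1 was 2.71 ± 0.34 higher after G-CSF than after AMD3100 (6.52-fold) and 3.51 ± 0.34 higher after CWHM-823+tGro-b than after AMD3100 (11.4-fold). The difference between G-CSF and CWHM-823+tGro-b was smaller: Hba-a1 was at -0.80 ± 0.34 and Hba-a2 at -0.95 ± 0.38, G-CSF minus CWHM-823+tGro-b. Slide by slide, Hba-a1 was lower after G-CSF than after CWHM-823+tGro-b on all 3 slides, by 0.32 to 1.17 (differences of -1.17 to -0.32).

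**Figure D1:**
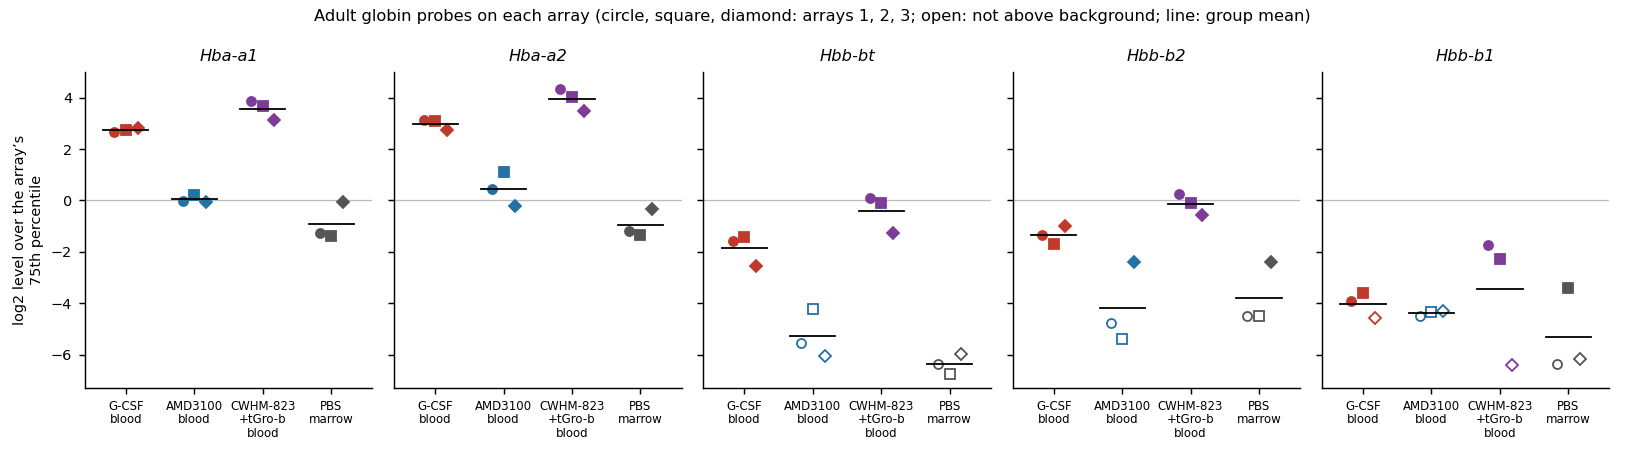
Level of each adult globin probe on every array (log2 over the array's 75th percentile), by group; circle, square and diamond are arrays 1, 2 and 3, open symbols were not above background and the line is the group mean. The CWHM-823+tGro-b and G-CSF arrays sit above the AMD3100 and marrow arrays for Hba-a1, Hba-a2, Hbb-bt and Hbb-b2, and the Hbb-b1 arrays overlap.

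The beta probes also read high in the G-CSF and CWHM-823+tGro-b groups. Hbb-bt is an adult beta gene of the single haplotype, so in DBA2/J cells its probe is read as adult beta signal, and which transcript it reads was not tested. The Hbb-bt probe was at -1.56, -1.41 and -2.56 on the G-CSF arrays, -5.56, -4.24 and -6.06 on the AMD3100 arrays and 0.09, -0.10 and -1.27 on the CWHM-823+tGro-b arrays, against -6.36, -6.74 and -5.98 on the marrow arrays. It was above background on every G-CSF and CWHM-823+tGro-b array and on 0 of the 6 AMD3100 and marrow arrays, so AMD3100 blood and marrow have only an upper bound. Taking the dim side at the weakest signal that counted as above background on each array, Hbb-bt was at least 7.03-fold higher in G-CSF blood and at least 18.8-fold higher in CWHM-823+tGro-b blood than in marrow. Against AMD3100 blood it was at least 5.03-fold higher after G-CSF and at least 13.4-fold higher after CWHM-823+tGro-b. Between the groups where it was measured on all arrays, the difference was -1.42 ± 0.50, G-CSF minus CWHM-823+tGro-b, with G-CSF lower on 3 of 3 slides.

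The Hbb-b2 probe, for the adult beta chains of the diffuse haplotype, gave -1.36, -1.70 and -1.0 on the G-CSF arrays, -4.79, -5.39 and -2.39 on the AMD3100 arrays and 0.26, -0.10 and -0.57 on the CWHM-823+tGro-b arrays, against -4.49, -4.50 and -2.42 on the marrow arrays. It was above background on all G-CSF and CWHM-823+tGro-b arrays but on array 3 alone of AMD3100 blood and of marrow. Array 3 of both groups was thus about as bright for Hbb-b2 and far above the other 2 arrays of its group. The differences from marrow were 2.45 ± 0.72 for G-CSF, -0.39 ± 0.72 for AMD3100 and 3.66 ± 0.72 for CWHM-823+tGro-b. Without marrow array 3 those for G-CSF and CWHM-823+tGro-b were 3.14 and 4.36. As measured, G-CSF blood was 2.84 ± 0.72 above AMD3100 blood, CWHM-823+tGro-b blood 4.05 ± 0.72 above AMD3100 blood, and G-CSF blood at -1.22 ± 0.72 relative to CWHM-823+tGro-b blood. The differences from AMD3100 blood rest on 2 arrays below background. With every array that was not above background raised to its weakest signal above background (an alternative added after the data were seen), they were 2.20 for G-CSF and 3.42 for CWHM-823+tGro-b, and AMD3100 blood minus marrow was 0.25, against -0.39 as measured.

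Hbb-b1, the major adult beta gene of the diffuse haplotype, could hardly be read with its own probe, which lies near the 5′ end of the transcript. Its levels were -3.92, -3.60 and -4.56 after G-CSF, -4.49, -4.34 and -4.31 after AMD3100 and -1.72, -2.29 and -6.39 after CWHM-823+tGro-b, against -6.37, -3.41 and -6.16 in marrow. It was above background on 2 G-CSF, 0 AMD3100, 2 CWHM-823+tGro-b and 1 marrow arrays, did not pass the filter, and its groups overlapped in every comparison. The 2 CWHM-823+tGro-b arrays that measured it had its highest levels.

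Across the 5 adult genes, the median log2 difference as measured was 3.65 for G-CSF minus marrow, 0.948 for AMD3100 minus marrow and 4.46 for CWHM-823+tGro-b minus marrow. With arrays not above background raised to their floor, as above, it was 2.81 (0.14 to 3.94), 0.48 (-0.01 to 1.41) and 4.23 (0.91 to 4.89), in the same order of comparisons, with Hbb-b1 at the lower end of each range and Hba-a2 at the upper. The same median over all genes tested was -0.25, 0.11 and -0.05. Between blood groups the median as measured was 2.71 for G-CSF minus AMD3100 and 3.51 for CWHM-823+tGro-b minus AMD3100, and 2.33 (0.15 to 2.71) and 3.49 (0.92 to 3.75) with the floor. For G-CSF minus CWHM-823+tGro-b it was -0.951 both ways. The all-gene medians were -0.37 for G-CSF minus AMD3100, -0.14 for G-CSF minus CWHM-823+tGro-b and -0.16 for CWHM-823+tGro-b minus AMD3100.

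Counting adult genes whose arrays did not overlap between groups, 4 of 5 were higher in G-CSF blood than in marrow, against 11.7% of all genes tested, 1 of 5 in AMD3100 blood, against 14.6%, and 4 of 5 in CWHM-823+tGro-b blood, against 4.46%. After G-CSF, 4 of 5 were higher than after AMD3100, against 19.8% of all genes, and 4 of 5 were lower than after CWHM-823+tGro-b, against 6.78%. After CWHM-823+tGro-b, 4 of 5 were higher than after AMD3100, against 11.2%. The exception was Hbb-b1 in each of the comparisons with 4, and the 1 gene for AMD3100 was Hba-a2. These counts come from the values that chose the genes, and nothing is read from them.

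The order of group means was CWHM-823+tGro-b, G-CSF, AMD3100 and then marrow for Hba-a1 and Hba-a2. For Hbb-bt and Hbb-b2 it was CWHM-823+tGro-b and then G-CSF, and AMD3100 blood and marrow were not ordered, since Hbb-bt was above background on 0 arrays of both and Hbb-b2 on 1 array of each. The AMD3100 and marrow arrays overlapped for Hba-a1 and not for Hba-a2.

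The remaining globin genes did not follow this order. Hba-x, which encodes the embryonic zeta chain, was above background on 0 of 12 arrays, and Hbb-bh1, an embryonic beta-like gene, on 1 of 12, a marrow array. Hbb-y, the embryonic epsilon-type gene, has 2 probes that disagreed: one was above background on 0 of 12 arrays and the other on all 12. The readable Hbb-y probe was at -3.30, -1.83 and -2.30 after G-CSF, -0.92, -0.75 and -1.51 after AMD3100 and -1.28, -1.16 and -1.34 after CWHM-823+tGro-b, against -2.33, -1.25 and -1.32 in marrow. Every G-CSF array lay below every array of the other blood groups, which is the opposite of the adult genes' G-CSF and AMD3100 order.

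Hbb-bh2, a further beta-like gene of the cluster, also had 1 probe above background on 0 of 12 arrays and 1 on all 12. The readable probe gave -1.52, -0.65 and -2.10 after G-CSF, -0.16, 0.06 and -0.84 after AMD3100 and -1.16, -0.15 and -1.78 after CWHM-823+tGro-b, against -1.63, -0.44 and -1.46 in marrow. Its groups overlapped in all 6 comparisons. Since 1 of 2 probes per gene gave no signal above background, neither Hbb-y nor Hbb-bh2 is read as expressed from the other.

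**Figure D2:**
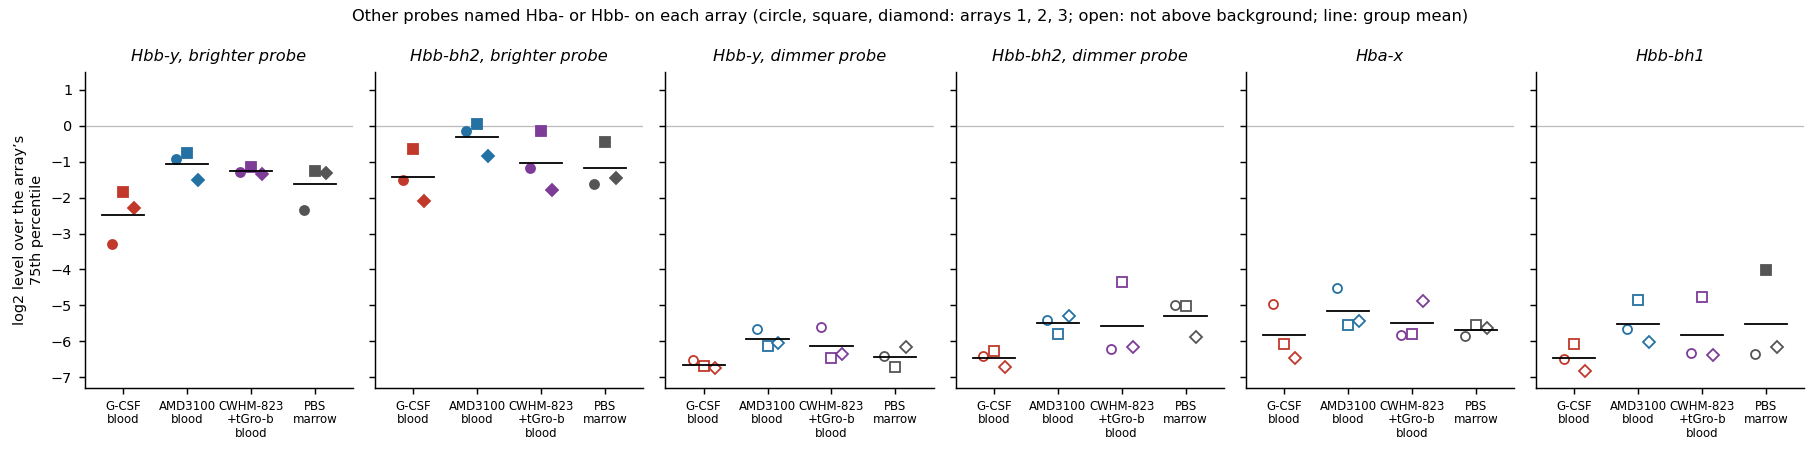
Level of the 6 other probes named Hba- or Hbb- on every array (log2 over the array's 75th percentile), by group; circle, square and diamond are arrays 1, 2 and 3, open symbols were not above background and the line is the group mean. For Hbb-y and Hbb-bh2, 1 probe was above background on all 12 arrays and the other on 0.

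Other members of the globin superfamily were tested with limma over all genes. The gene lists that name them were chosen with earlier results of these data known. Hbq1b, a theta globin gene at the end of the alpha cluster, was at -3.49, -1.44 and -3.36 after G-CSF and at 0.02, -0.76 and -1.13 after AMD3100. It fell after G-CSF relative to AMD3100 by 2.14 ± 0.49 on the log2 scale (adjusted p = 0.0139), lower on 3 of 3 slides. Hbq1a, its neighbour, fell by 1.40 ± 0.42 (adjusted p = 0.0304), also on 3 of 3 slides. The theta genes thus differed between these groups in the direction opposite to the adult alpha genes. A fall was common in this comparison: 18.4% of all genes tested fell, and their median difference was -0.37. That all-gene direction depended on the scaling, as given below. Neither call held in every fit that left out 1 array: that of Hbq1b was lost without G-CSF array 1 or 3 (adjusted p up to 0.0616) and that of Hbq1a without array 1 or 3 of G-CSF or 1 or 2 of AMD3100 (up to 0.0997). Cygb, cytoglobin of non-erythroid cells, fell by 1.12 ± 0.37 in the same comparison (adjusted p = 0.0412), a call lost in 5 of the 12 such fits, 4 of them without array 1 or 3 of G-CSF or 1 or 2 of AMD3100 and 1 without marrow array 1. Ngb, neuroglobin, was above background on all arrays and passed in no comparison, and Mb, myoglobin, was above background on 0 arrays.

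All 23809 genes tested were ranked by the likeness of their profile to that of Hba-a1. The adult globins were chosen with their group levels known, and both alpha probes are assigned to the same transcripts. Nothing is therefore read from the ranks of the globins themselves. After each profile was centred on its mean, the root mean square difference from Hba-a1 over the 12 arrays was 0.31 for Hba-a2 (the nearest gene), 0.77 for Hbb-bt (the third) and 0.90 for Hbb-b2 (the fourth). Csrnp1, which encodes a nuclear protein, was the second at 0.72. Dyrk3, a kinase known from erythroid cells, Lmna, the gene of lamin A and C, the kinases Plk3 and Sgk1, the small Maf factor Maff and Ptgs2, a prostaglandin synthase, made up the rest of the first 10, at 1.03 to 1.07. These genes were picked for their likeness, so their levels are a description.

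Csrnp1 averaged -1.01 after G-CSF, -2.58 after AMD3100 and -0.46 after CWHM-823+tGro-b, against -4.97 in marrow, where it was not above background, so that it was at least 12.6-, 4.22- and 18.4-fold higher in the 3 blood groups, in the same order. Dyrk3 averaged 0.86, -0.44 and 0.81, against -1.58 in marrow. Lmna averaged 1.81, 0.68 and 1.53, against -2.34.

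With group means removed, so that only the scatter within groups was left, Hba-a2 stayed near Hba-a1, at rank 123 of the 23809 genes (0.25). Hbb-bt ranked 11290th (0.48) and Hbb-b2 20865th (0.74). In AMD3100 blood and in marrow, Hbb-bt was above background on 0 arrays and Hbb-b2 on 1 array of each. Their scatter within groups is therefore partly that of dim signal, and nothing is read from these 2 ranks. The nearest genes with a symbol were Csl, Magi3, Sptlc1, Get3 and Spint2, at 0.18 to 0.20.

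Genes that work with the globins were then read from 5 lists: erythroid transcription factors and globin regulators, heme synthesis and iron supply, red cell membrane and cytoskeleton, reticulocyte and late erythroid genes, and erythroid progenitor genes. Together they named 82 distinct genes, of which 77 were tested. A gene passed at an adjusted p under 0.05 (limma, Benjamini-Hochberg over all 23809 genes). The arrays of a slide deviated together, so counts from a fit that blocks on the slide are given beside the counts of the lists.

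Where adult globin was highest, no gene of the erythroid lists passed relative to marrow, and few of all genes did. In CWHM-823+tGro-b blood relative to marrow, 0 of the 77 genes rose and 0 fell, with or without the block (limma), and 3 rose and 4 fell at an unadjusted p under 0.05. Their median difference was -0.09, beside -0.05 over all genes, and the shares of all genes that rose and fell were 0.340% and 0.0294% (0.769% and 0.311% with the block). With shares this small, 0 of 77 is near the background, and nothing is read from it. Alas2, the enzyme that opens heme synthesis in erythroid cells, was at -1.70, -1.45 and -2.76 in CWHM-823+tGro-b blood, against -3.33, -3.44 and -3.71 in marrow. Its groups did not overlap, and its difference of 1.53 ± 0.37 did not pass (adjusted p = 0.162, and 0.117 with the block). Klf1, the KLF factor of erythroid cells that binds the beta promoter, differed by 0.00 ± 0.49 there.

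In G-CSF blood relative to marrow, 1 of the 77 genes rose and 3 fell, against 1.18% and 0.554% of all genes, and with the block 5 rose and 14 fell, against 8.22% and 11.3%. Of all the genes that passed there, 281 rose and 132 fell (68.0% higher), a split that moved with the scaling: 282 and 70 with quantile normalization, 325 and 50 with array medians and 196 and 42 in the authors' normalized table. The median was -0.13, beside -0.25. Without marrow array 3, 1 rose and 0 fell. Klf1 was at -3.29, -2.62 and -2.87 in G-CSF blood, against -1.03, -1.01 and -0.01 in marrow, and fell by 2.24 ± 0.49 on the log2 scale (adjusted p = 0.0446), while alpha globin was higher in the same samples. Car1, carbonic anhydrase 1 of erythroid progenitors and red cells, was at -1.99, -1.81 and -2.66 in G-CSF blood, against 0.43, 0.06 and 1.43 in marrow, and fell by 2.79 ± 0.51 (adjusted p = 0.0175). Rhag, the Rh-associated membrane glycoprotein, was above background on all marrow arrays and on 0 G-CSF arrays, at least 5.20-fold lower (adjusted p = 0.0112). Tmem14c, a mitochondrial porphyrin carrier, rose by 1.30 ± 0.27 (adjusted p = 0.0318).

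These 4 calls depended on single arrays. Klf1 lost its call in 7 of the 12 fits that each left out 1 array (adjusted p up to 0.180): without array 1 or 3 of G-CSF, any marrow array, or array 2 of AMD3100 or of CWHM-823+tGro-b. Car1 lost it without G-CSF array 1 or 3 or marrow array 1 or 3 (up to 0.0826), Rhag without G-CSF array 3 or marrow array 3 (up to 0.0562) and Tmem14c without G-CSF array 1, AMD3100 array 1 or marrow array 1 or 2 (up to 0.153). Epor, the erythropoietin receptor, differed by -1.21 ± 0.30 (adjusted p = 0.0653, and 0.0221 with the block), Bpgm, which makes the red cell's 2,3-bisphosphoglycerate, by 1.02 ± 0.34 (adjusted p = 0.146, and 0.0329 with the block), and Car2, carbonic anhydrase 2, by -0.86 ± 0.28 (adjusted p = 0.145, and 0.0113 with the block).

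In AMD3100 blood relative to marrow, 0 of the 77 genes rose and 3 fell (limma; 2 rose and 21 fell at an unadjusted p under 0.05), against 0.512% and 0.907% of all genes. With the block 0 rose and 20 fell, against 5.81% and 7.70%. The median was -0.26, beside 0.11. The 3 were Cpox, coproporphyrinogen oxidase of heme synthesis, Aqp1, the water channel of the red cell membrane, and Sox6, a repressor of embryonic beta globin. Cpox was at -4.05, -3.93 and -3.77 in AMD3100 blood, none above background, against -1.64, -1.64 and -1.61 in marrow, at least 4.68-fold lower (adjusted p = 0.00224). Aqp1 was at -5.45, -5.21 and -4.56 in AMD3100 blood, again none above background, against -2.41, -2.31 and -1.55 in marrow, at least 4.39-fold lower (adjusted p = 0.00285). Both calls held in all 12 fits without 1 array. Sox6 fell by 1.99 ± 0.39 (adjusted p = 0.0336), a call lost in 5 of those fits, without G-CSF array 1, AMD3100 array 1 or 2 or marrow array 1 or 2.

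G-CSF and AMD3100 blood differed most. After G-CSF, 15 of the 77 genes were higher and 8 lower than after AMD3100, against 12.6% and 18.4% of all genes, and with the block 21 and 19, against 23.0% and 39.6%. The median was 0.05, beside -0.37. The direction of the all-gene background there depended on the scaling: 3009 genes were higher and 4386 lower in the main scaling, 3318 and 2607 with quantile normalization, 4714 and 1802 with array medians and 2792 and 2262 in the authors' normalized table. The erythroid counts under those 3 scalings were 15 higher and 5 lower, 18 and 3, and 11 and 5, in the same order. The block moved the counts of the single lists too, as given beside each, and each is to be set against the shares of all genes just given. Of the transcription factors and regulators, 5 of 16 rose and 0 fell (8 and 1 with the block), among them Sox6 (1.94 ± 0.39, adjusted p = 0.0099), Nfe2l2 (1.11 ± 0.30, adjusted p = 0.0219) and Gata1 (1.16 ± 0.36, adjusted p = 0.0356), the GATA factor that opens the globin loci. Of the heme and iron genes, 6 of 17 rose and 0 fell (8 and 0 with the block), among them Cpox (at least 5.23-fold, adjusted p = 0.000763), Urod, uroporphyrinogen decarboxylase (1.55 ± 0.27, adjusted p = 0.0067), and Abcb10, a mitochondrial transporter (1.36 ± 0.29, adjusted p = 0.0114).

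Of the 16 membrane genes tested, 1 rose and 4 fell in that comparison (2 and 8 with the block, and 1 and 1 with quantile normalization or array medians). Aqp1 rose at least 11.9-fold (adjusted p = 0.000213), while Cldn13, a claudin of mouse erythroid cells, fell by 2.55 ± 0.44 (adjusted p = 0.0067), and Ermap and the spectrin gene Sptb fell by 1.06 ± 0.32 (adjusted p = 0.0306) and 1.12 ± 0.35 (adjusted p = 0.0361). Of the 23 late erythroid genes tested, 4 rose, among them Fbxo7, Fech and Bpgm by 0.99 to 1.25, and 4 fell, among them Trim10 and both theta globins (4 and 8 with the block). Of the erythroid progenitor genes, 2 of 19 rose, Aqp1 and Gata1, and 1 fell, Ermap (2 and 6 with the block). The calls of Sox6, Cpox, Urod, Aqp1 and Cldn13 held in all 12 fits without 1 array. Those of Nfe2l2, Gata1, Abcb10, Ermap, Sptb, Fbxo7, Fech, Bpgm and Trim10 were each lost in 1 to 5 of them, always in a fit without an array of G-CSF or AMD3100 blood (adjusted p up to 0.139, for Sptb).

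Few genes passed between the 2 groups with the highest globin, in the lists as over all genes. The median over the 77 list genes, G-CSF minus CWHM-823+tGro-b, was -0.14, beside -0.14 over all genes. The 6 erythroid progenitor markers read below had a median of -1.24. Of these 6, 0 passed, and with the block 0 were higher and 2 lower. After G-CSF, 1 of the 77 genes was higher than after CWHM-823+tGro-b and 0 were lower (limma; 3 and 9 at an unadjusted p under 0.05), against 0.370% and 0.256% of all genes, and with the block 1 and 3, against 1.12% and 1.08%. The gene was Aqp1, by 1.87 ± 0.35 (adjusted p = 0.0351), lost in 8 of the 12 fits without 1 array, any G-CSF array among them (up to 0.158). Klf1 was at -2.24 ± 0.49 and Car1 at -2.56 ± 0.51 in this comparison, with groups that did not overlap (adjusted p = 0.0839 and 0.0512, the second 0.0327 with the block). After CWHM-823+tGro-b, 2 of the 77 genes were higher than after AMD3100, Cpox (at least 3.75-fold, adjusted p = 0.0113) and Aqp1 (at least 3.26-fold, adjusted p = 0.0166), and 0 were lower (limma), against 0.118% and 0.0294% of all genes. At an unadjusted p under 0.05, 19 were higher and 4 lower. The median over the 77 was 0.18, beside -0.16 over all genes. Leaving out array 1 of either group ended the calls of Cpox and Aqp1 (adjusted p up to 0.0910), as did leaving out AMD3100 array 2 for Aqp1. With the block 18 were higher and 3 lower, against 8.42% and 8.41%.

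**Figure D3:**
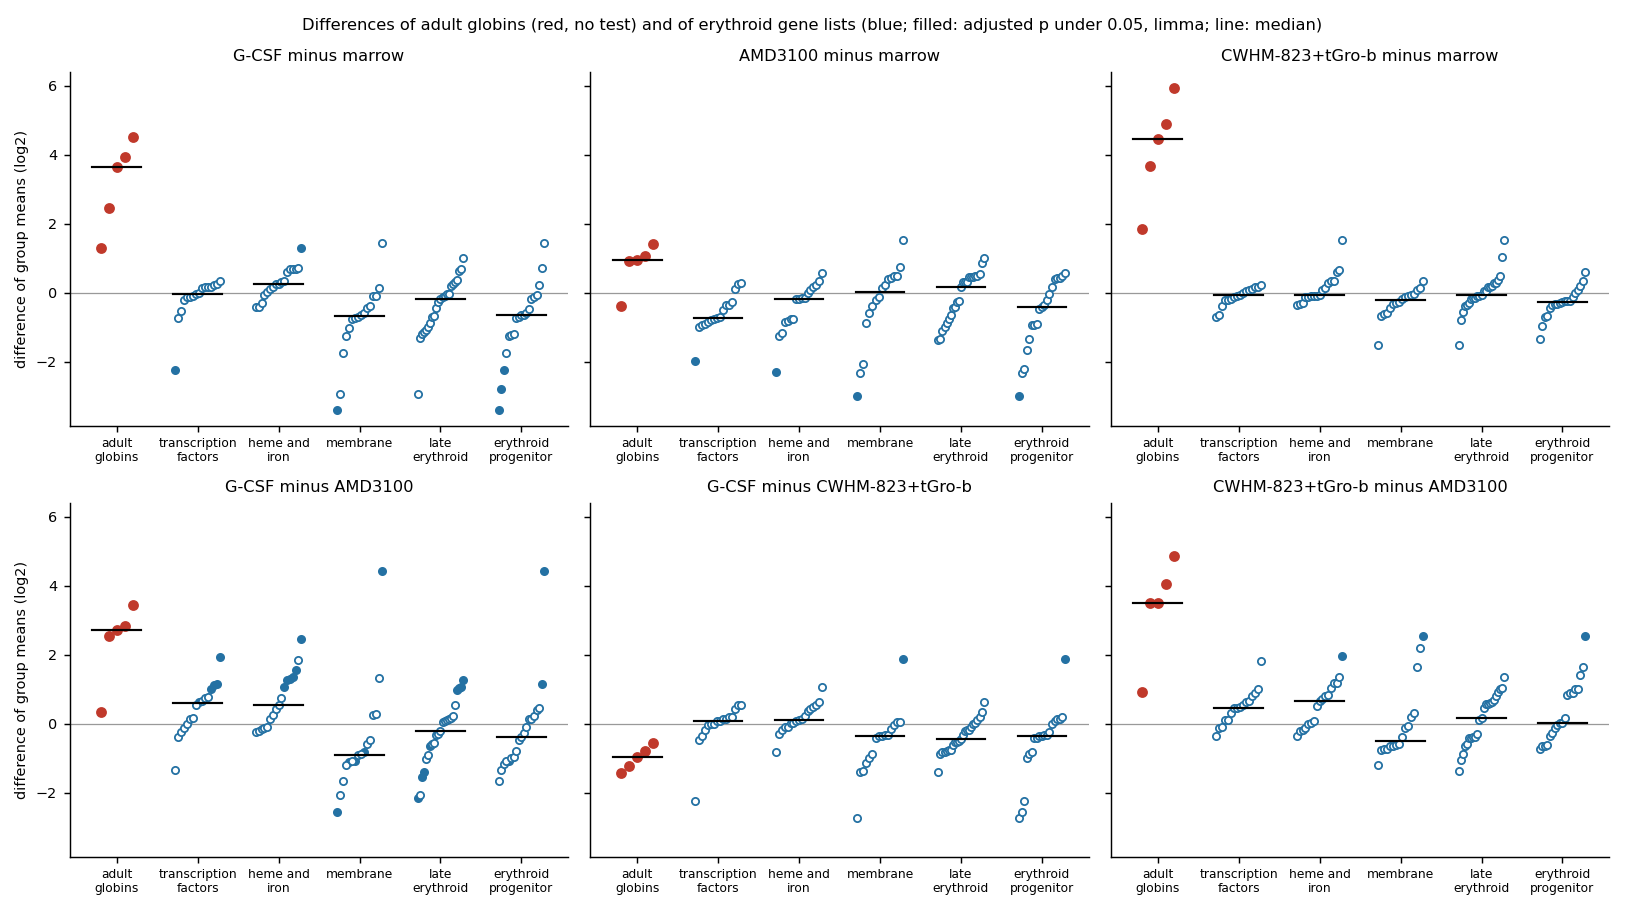
Difference of group means (log2) for the 5 adult globins (red, not tested) and for each tested gene of the 5 erythroid lists (blue; filled where the adjusted p was under 0.05), in the 6 comparisons; lines are medians, and a gene on several lists is drawn in each. In G-CSF and CWHM-823+tGro-b blood relative to marrow, the globin medians are 3.65 and 4.46, and the list medians are between -0.66 and 0.26.

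The defining genes of red cells and reticulocytes were read beside the globins, since these cells carry globin mRNA. Epb42, protein 4.2 of the membrane skeleton, was above background on 0 of the 12 arrays, also on the arrays with the highest globin. Alas2 was at -2.61, -3.13 and -2.66 in G-CSF blood and -3.37, -3.85 and -2.78 in AMD3100 blood, and the other groups' levels are given above. Its highest group mean was that of CWHM-823+tGro-b, as for the globins.

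Ahsp, the chaperone of free alpha globin, did not go with the alpha chains. It was at -2.54, -1.82 and -4.12 in G-CSF blood, -3.61, -1.19 and -3.82 in AMD3100 blood and -2.45, -1.99 and -2.46 in CWHM-823+tGro-b blood, against -2.14, -1.42 and -0.99 in marrow, where its mean was highest. No comparison of Ahsp passed (lowest adjusted p = 0.302), and all its groups overlapped. Slc4a1, the anion exchanger band 3, lay between -2.12 and -0.26 on the 12 arrays. Tfrc, the transferrin receptor that reticulocytes keep, averaged -2.43 after G-CSF, -2.58 after AMD3100 and -2.57 after CWHM-823+tGro-b, against -3.16 in marrow, and passed in no comparison.

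Of the 5 red cell markers tested, 0 rose and 0 fell in each blood group relative to marrow (limma; with the block, 1 rose and 1 fell in G-CSF blood), and for CWHM-823+tGro-b 1 rose at an unadjusted p under 0.05. With 0.340% to 1.18% of all genes rising and 0.0294% to 0.907% falling in those comparisons, 0 of 5 is near the background, and nothing is read from it. The linear levels of all 8 red cell markers, dim ones included, summed to 1.95 to 2.38 in G-CSF blood and 2.22 to 2.94 in AMD3100 blood. The sums were 2.26 to 2.72 in CWHM-823+tGro-b blood and 1.86 to 2.63 in marrow, ranges that overlap. Such sums, here and below, are carried by the brighter probes. Dimmer Alas2 adds little to them, so nothing is read from the overlap. The part of red cell or reticulocyte RNA in the globin values was not tested. The erythroid progenitor markers (6 genes) summed to 1.18 to 1.56, 1.29 to 2.22 and 2.23 to 5.04 in the 3 blood groups, in the same order, against 2.53 to 5.23 in marrow, with Rhag above background on 0 arrays of G-CSF and of AMD3100 blood.

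**Figure D4:**
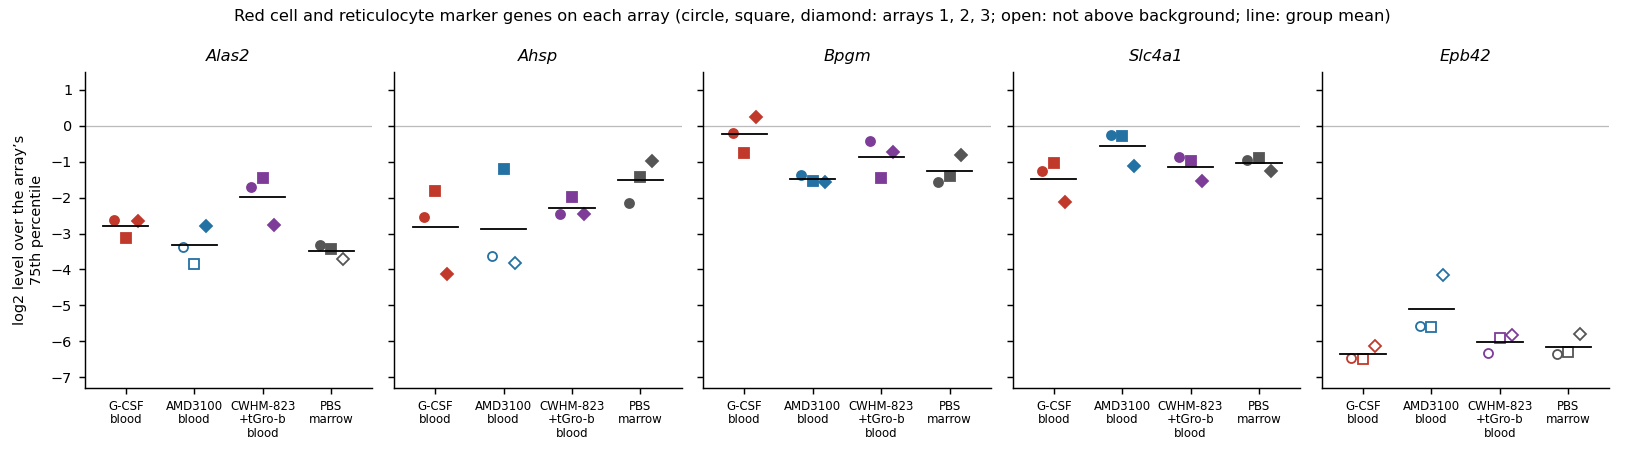
Level of 5 red cell and reticulocyte markers on every array (log2 over the array's 75th percentile), by group; circle, square and diamond are arrays 1, 2 and 3, open symbols were not above background and the line is the group mean. Epb42 is open on every array, and Alas2 has its highest mean in CWHM-823+tGro-b blood.

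Of the other cell types, mast cells and basophils had some markers that rose in blood. The summed levels of the 6 listed genes were 6.32 to 9.23 in G-CSF blood and 4.16 to 12.85 in AMD3100 blood. They were 5.67 to 8.61 in CWHM-823+tGro-b blood and 4.18 to 4.62 in marrow. Ms4a2, a subunit of the IgE receptor, was above background on 0 arrays. Of the 5 tested, 2, 2 and 1 rose in G-CSF, AMD3100 and CWHM-823+tGro-b blood relative to marrow, against 1.18%, 0.512% and 0.340% of all genes. With the block 3, 2 and 2 rose, against 8.22%, 5.81% and 0.769%. In each comparison 0 fell, and with the block 1 fell in AMD3100 blood, where the lowest difference was -0.85. Without the block, AMD3100 blood had as many rising markers as G-CSF blood. Its range reached that of marrow through array 2 alone (4.16), and arrays 1 and 3 were at 10.6 and 12.85. The part of mast cells and basophils in the globin values was not tested. Marrow array 3 stood apart: its 10 neutrophil markers summed to 32.2, against 3.08 and 2.92 on marrow arrays 1 and 2. The sums of the blood arrays lay between 2.06 and 4.44. Marrow array 3 was also the marrow array with the highest Hba-a1, Hba-a2 and Hbb-b2, and its part in the marrow values was not tested beyond the differences without it given above. The 10 LSK markers, among them Kit and Ly6a (Sca-1), were above background on all 12 arrays except Slamf1, which was on 0 AMD3100 arrays. Some of them differed between groups all the same. In AMD3100 blood 0 of the 10 rose and 3 fell relative to marrow, against 0.512% and 0.907% of all genes. With the block 0 rose and 6 fell, against 5.81% and 7.70%. Their median was -0.69, beside 0.11 over all genes. In G-CSF blood 1 rose and 1 fell, against 1.18% and 0.554% of all genes (2 and 4 with the block, against 8.22% and 11.3%). In CWHM-823+tGro-b blood 0 rose and 0 fell, with or without the block, against 0.340% and 0.0294% (0.769% and 0.311% with it). After G-CSF, 4 were higher and 1 lower than after AMD3100, against 12.6% and 18.4% of all genes. With the block the counts were again 4 and 1, against 23.0% and 39.6%. Ly6a, a gate gene, rose in G-CSF blood by 1.65 ± 0.33 relative to marrow (adjusted p = 0.0309) and by 1.61 ± 0.33 relative to AMD3100 blood (adjusted p = 0.0105). The part of this in the globin values was not tested.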

How the data were processed

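RNA of sorted LSK cells was measured on 12 one-colour Agilent arrays (4 groups of 3). Per the labels' protocols, RNA was amplified with the WTA2 kit and labelled with a Cy5 ULS dye. The deposited scanner output holds intensity values per spot; per the file headers they were extracted with Agilent Feature Extraction 11.5.1.1, background-subtracted and not scaled between arrays. The authors also deposited normalized intensity values for 30354 probes in one table; its method is not given in the sources used here.

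The 43020 spots without a control role, less those the scanner marked as outliers, were averaged to 39429 probes; 0 were saturated. The value used was log2 of the processed signal, less the 75th percentile on that array (linear percentiles of 1146 to 2724). The AMD3100 arrays had the lowest percentiles (1146, 1577 and 1581, the next being 1647). Their weakest signals above background were the highest on this scale (-3.87, -4.40 and -4.40, the next being -4.52). The part of this in the probes not above background in AMD3100 blood was not tested. On each array 70.8% to 83.3% of probes were above background, and the number of arrays limits the precision. Probes above background on all arrays of a group were kept, 146 were dropped for outliers, and the brightest probe stood for a gene, giving 23809 genes. limma 3.58.1 (R 4.3.3) fitted 1 mean per group to all arrays (8 residual and 3.81 prior degrees of freedom, 2-sided, adjusted by Benjamini-Hochberg). The fit was tested on simulated data. Each slide held 1 array per group under 1 replicate number. With group means subtracted, the 18 same-numbered pairs had correlations over genes of 0.260 to 0.616, against a median of -0.240 in the 36 other pairs, so the numbers pair the samples.

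Globin members, gene lists and tests were chosen with earlier results of these data known. Every globin probe is named, with fixed erythroid genes (3 of them are not reported here), up to 3 passing genes per list, direction and comparison, and the 10 nearest profiles. Alternatives were other scalings, background correction, the authors' table, other filters, the slide block, a trended robust prior, only 2 groups, and each array left out.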

Additional observations from a re-analysis of the deposited data

How the results depend on the processing

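No globin difference changed sign under other settings where it exceeded the spread between replicates. Of the values of single globin probes under those settings, 119 stayed within 1 SD and 12 moved further. All 408 values that left out 1 array stayed within it too. With 3 arrays per group, leaving out 1 array cannot move a difference by 1 SD, so nothing is read from the 408. Normexp background correction moved the adult globin medians to 2.02 for G-CSF minus marrow, 3.08 for CWHM-823+tGro-b minus marrow, 1.64 for G-CSF minus AMD3100, 0.382 for AMD3100 minus marrow and 2.70 for CWHM-823+tGro-b minus AMD3100; it adds an offset of 50, which shrinks differences of dim probes. Array medians moved that of G-CSF minus CWHM-823+tGro-b to -0.751. Raising arrays not above background to their floor, chosen after seeing the data, moved that of G-CSF minus marrow to 2.81. With 1 array left out, the medians ranged from 3.41 to 4.08 for G-CSF minus marrow, 0.761 to 1.26 for AMD3100 minus marrow, 4.21 to 4.88 for CWHM-823+tGro-b minus marrow, 2.54 to 2.79 for G-CSF minus AMD3100, -1.43 to -0.757 for G-CSF minus CWHM-823+tGro-b and 3.35 to 3.72 for CWHM-823+tGro-b minus AMD3100.

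Counts of all genes passing moved more, and the cause was not tested. With the replicate block, the slide, they were 4643 for G-CSF minus marrow (413 without), 3217 for AMD3100 minus marrow (338), 257 for CWHM-823+tGro-b minus marrow (88), 14909 for G-CSF minus AMD3100 (7395), 523 for G-CSF minus CWHM-823+tGro-b (149) and 4007 for CWHM-823+tGro-b minus AMD3100 (35). With only the 2 groups compared, so fewer samples, they were 231, 141, 3871, 47 and 11, for the same order without CWHM-823+tGro-b minus marrow. The authors' table, which holds fewer probes, gave 238 for G-CSF minus marrow, 89 for G-CSF minus CWHM-823+tGro-b and 3 (3 higher, 0 lower) for CWHM-823+tGro-b minus AMD3100. For AMD3100 minus marrow, quantile normalization gave 743, normexp 168 and no filter 172. For CWHM-823+tGro-b minus AMD3100, quantile normalization gave 1.1e+02 (85 higher and 22 lower), normexp 9 and probes above background on all arrays 5. With 1 array left out, the counts ranged from 184 to 742, 62 to 321, 53 to 86, 1474 to 10242, 71 to 183 and 11 to 72, in the order of the first list. Of the 27 named calls in the erythroid lists and the wider globin family, 7 were kept in every fit without 1 array, 20 were lost in at least 1, and 27 were kept with the block; the calls of the closing observations are not among them. Low signal limits Hbb-bt in AMD3100 blood and marrow, and Hbb-b1 in all groups, to bounds or partial readings.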

Other observations

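A set of 12 tested genes was chosen after the data were seen. It held genes of heme recycling and hemoglobin clearance and, outside that theme, Hbs1l. Of the 12, 0 rose and 0 fell relative to marrow in any blood group (limma; 0 rose at an unadjusted p under 0.05, and 1, 3 and 0 fell in G-CSF, AMD3100 and CWHM-823+tGro-b blood). With the slide as a block, 1, 4 and 0 fell. The gene in G-CSF blood was Cd163, the scavenger receptor of macrophages for hemoglobin bound to haptoglobin (-0.77, adjusted p = 0.186, and 0.0490 with the block). The 4 in AMD3100 blood were Slc40a1, the iron exporter ferroportin, above background on 0 arrays there and on 3 in marrow (adjusted p = 0.0888, and 0.0287 with the block), Bach1, a heme-binding repressor of globin and heme oxygenase genes (-0.85, adjusted p = 0.112 and 0.0152), Slc48a1, a heme transporter (-0.62, adjusted p = 0.275 and 0.0276), and Hbs1l, the neighbour of Myb (-0.69, adjusted p = 0.247 and 0.0395). Hmox1, heme oxygenase 1, differed from marrow by -0.45 in G-CSF blood (adjusted p = 0.299), -0.08 in AMD3100 blood (adjusted p = 0.877) and -0.26 in CWHM-823+tGro-b blood (adjusted p = 1.00). The ferritin genes Fth1 and Ftl1 differed from marrow by 0.28 and 0.22 in G-CSF blood and by 0.27 and 0.18 in CWHM-823+tGro-b blood, and neither passed.

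In G-CSF blood relative to AMD3100 blood, 3 of the 12 rose and 1 fell, against 12.6% and 18.4% of all genes, and 5 rose and 2 fell with the block. Flvcr1, an exporter of heme that was above background on 1 of 3 AMD3100 arrays, rose by 1.17 (adjusted p = 0.0383), Bach1 by 0.95 (adjusted p = 0.0209) and Hbs1l by 0.90 (adjusted p = 0.0416), each higher on 3 of 3 slides. Cd163 fell by 1.11 (adjusted p = 0.0188), lower on 3 of 3 slides. Of the 12 fits without 1 array, these calls were lost in 5 for Flvcr1, 4 for Bach1, 6 for Hbs1l and 2 for Cd163 (adjusted p up to 0.157), and all 4 were lost without G-CSF array 3 or AMD3100 array 1.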
